A study of Mus musculus with 2 samples.

Results

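Mir431, Mir433, Mir127, Mir434, Mir136 and Mir3071 are 6 microRNA (miRNA) genes that lie on top of the gene Rtl1 in the imprinted Dlk1-Dio3 locus of mouse chromosome 12. They were taken by name and position, by a rule that uses no measured value although earlier results of these data were known, and are 6 of the 2202 annotated miRNA genes counted. Their reads came from cerebral cortex of strain B6NCrl mice, sequenced as 2 small RNA libraries of 1 group. The labels describe both as wild-type control tissue from females and give no treatment, while the fields for sex and age read "not collected". They number the libraries as biological replicates 1 and 2 from separate tissue records, but both point to the same donor record, so whether they came from separate animals is not stated and spread and p-values between them may be technical. The labels also cite a different adapter trimming document for each library, so the trimming and the library cannot be told apart.

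A miRNA is cut from a hairpin precursor, and either arm of the hairpin can be loaded into an Argonaute protein. Bases 2 to 8 of the loaded arm, the seed, do most of the pairing with target messenger RNAs. In the Dlk1-Dio3 locus the maternal chromosome expresses Meg3, Rian, Mirg and the miRNAs along them, whereas the paternal chromosome expresses the protein-coding genes Dlk1, Rtl1 and Dio3. Rtl1 derives from a retrotransposon and is needed for the mouse placenta. The maternal miRNAs made opposite it pair fully with its messenger RNA and, in mouse, can direct its cleavage.

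The mature arms carry the relation to Rtl1 and are therefore shown first. They are RefSeq sequences (GRCm38.p6, the assembly also called mm10), which held all 6 hairpins at the coordinates of the GENCODE M21 genes. Capitals mark the seed.
miR-431-5p: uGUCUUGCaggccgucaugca
miR-431-3p: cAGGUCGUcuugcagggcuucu
miR-433-5p: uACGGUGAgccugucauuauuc
miR-433-3p: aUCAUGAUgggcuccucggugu
miR-127-5p: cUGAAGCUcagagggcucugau
miR-127-3p: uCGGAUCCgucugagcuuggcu
miR-434-5p: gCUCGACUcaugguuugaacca
miR-434-3p: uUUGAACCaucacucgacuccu
miR-136-5p: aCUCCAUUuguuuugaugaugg
miR-136-3p: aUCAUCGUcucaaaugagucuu
miR-3071-5p: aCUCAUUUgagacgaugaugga
miR-3071-3p: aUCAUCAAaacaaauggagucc

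Of these 12 arms, 10 had a fully complementary stretch in the Rtl1 transcript, 1 each, and all 10 stretches lay in the coding sequence. That transcript is annotated on the reverse strand, runs for 6358 bases and is coding from base 148 to base 5379. The other 2 arms, those of Mir3071, are identical to the Rtl1 transcript and not complementary to it, because Mir3071 is annotated on the strand of Rtl1. The name "Rtl1-antisense" thus describes 5 of the 6 genes. Counted from the 5′ end of the Rtl1 transcript, the stretch for miR-127-3p spans bases 2642 to 2663 (chr12:109592888-109592909) and that for miR-136-5p bases 199 to 220 (chr12:109595331-109595352). The stretch identical to miR-3071-3p spans bases 201 to 222 (chr12:109595329-109595350). These are shown as written in the Rtl1 transcript (GENCODE M21), because the pair shows how Mir136 and Mir3071 read opposite strands of the same bases. Capitals mark the match to the seed of a complementary arm, or the seed itself for miR-3071-3p.
Rtl1 opposite miR-127-3p: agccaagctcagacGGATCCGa
Rtl1 opposite miR-136-5p: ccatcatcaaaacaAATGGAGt
Rtl1 identical to miR-3071-3p: aTCATCAAaacaaatggagtcc
The last 2 stretches overlap by 20 bases, and miR-136-3p overlaps miR-3071-5p by 19 bases. Along the Rtl1 transcript the complementary stretches of Mir136 come first, followed by those of Mir434, Mir127, Mir433 and Mir431.

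**Figure D1:**
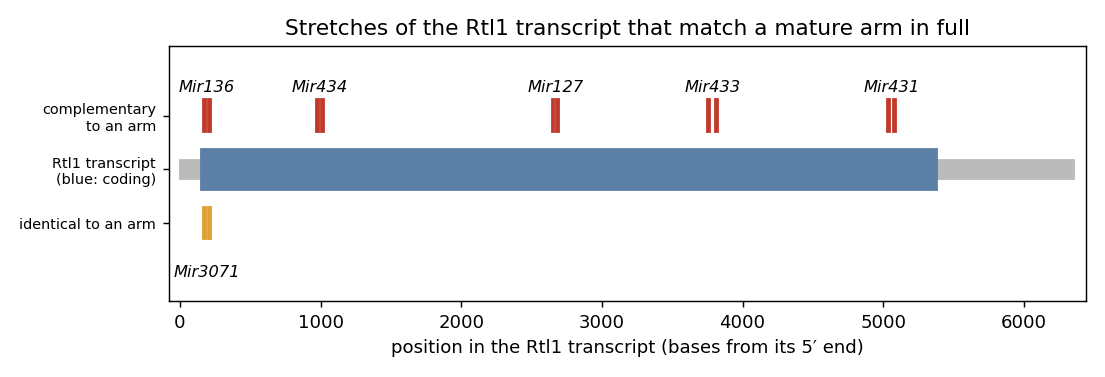
Position along the Rtl1 transcript, in bases from its 5′ end, with the coding part in blue and the untranslated parts in grey. Red marks are the 10 stretches complementary to a mature arm, and the 2 yellow marks are identical to the arms of Mir3071, at the place of the Mir136 marks.

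Each gene brings its own seeds. No seed of the 12 arms was shared between members or with another of the 1738 mature entries in the RefSeq table. Mir434 and Mir431 carry internal repeats. The seed of miR-434-3p occurs 3 times in the Mir434 hairpin and once inside miR-434-5p, and that of miR-434-5p occurs 2 times, once inside miR-434-3p. The seed of miR-431-5p occurs 2 times in the Mir431 hairpin, once inside miR-431-3p. Over all 1635 arms with a hairpin in the table, 1.59% had their seed more than once in the hairpin and 0.49% had it in the opposite arm. Among the members' arms, 5 start with A, 4 with U, 2 with C and 1 with G. In the whole table U leads, at 41.3% of 1738 entries, with A at 25.5%. Both arms of Mir3071 start with A, and without them U leads among the members too. The Rtl1 coding sequence held 4 matches to the seed of miR-434-3p, 3 each for miR-434-5p and miR-431-5p, 2 each for miR-431-3p and miR-136-5p, and 1 each for the other 5 complementary arms. These counts include the fully complementary stretch of each arm, so at least 1 match follows from the position opposite that sequence. They also include the repeats within the hairpins, which lie opposite it too. No member shared a run of 20 bases in the sense direction with another of the 1005 hairpins in the RefSeq table. Only Mir136 and Mir3071 shared one in the opposite direction.

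The precursors lie within a few kilobases (mm10). Mir431 is at chr12:109590447-109590537, Mir433 at chr12:109591715-109591838, Mir127 at chr12:109592846-109592915, Mir434 at chr12:109594506-109594599 and Mir136 at chr12:109595327-109595388. These 5 are on the forward strand. Mir3071, at chr12:109595318-109595397 on the reverse strand, covers Mir136 completely. All 6 fall inside the coding part of the last exon of Rtl1. The annotation also places Mir432 there, between Mir434 and Mir136. It is not among the 6 and had 0 reads in both libraries. Precursor GC content ran from 40.3% for Mir136, 45.7% for Mir434 and 46.2% for Mir3071 to 56.5% for Mir433, 57.1% for Mir127 and 60.4% for Mir431, beside a median of 50.8% over all counted genes.

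The tables held 4429633 sense reads in annotated miRNA genes in replicate 1 and 6985784 in replicate 2. Levels are given as CPM, reads per 1000000 of these. A count of 0 allows up to 0.677 CPM in replicate 1 and 0.429 CPM in replicate 2, with a limit of 3 reads. Such limits and all intervals cover counting error only. Reads placed at several loci, 43.9% and 47.9% of all reads, are in no gene's count. Levels, ranks, shares and neighbours therefore describe uniquely placed reads, and a miRNA made at several loci can stand too low among them. The members share no run of 20 bases in the sense direction with another hairpin of the RefSeq table, so their ranks and shares may stand too high. The rest of the genome was not searched for such runs. The tissue label was checked on 6 neuronal miRNA genes, which together reached 66967 CPM and 84073 CPM. Mir132 alone held 42570 and 61586 CPM of this, and Mir598, Mir128-1 and Mir138-1 nearly all the rest. The others were low, with Mir9-1 at 11.1 and 64.3 CPM and Mir124a-1 below 2 CPM in both libraries. The liver gene Mir122 had 25.3 and 31.3 CPM. Lists for liver, skeletal muscle and red blood cells summed to between 2.48 and 31.3 CPM per library. All muscle reads were those of Mir206 (19.9 and 29.5 CPM), with 2 of 3 muscle genes at 0 reads in both. At genes with copies elsewhere, a low level and reads left out as placed at several loci cannot be told apart. Low or zero counts at such genes, among them Mir9-1, Mir124a-1 and Mir1a-1, therefore do not check the label.

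Mir127 had by far the most reads of the 6 genes, and Mir3071 had none. Levels compare reads, and whether different sequences were recovered equally well as reads was not tested. Mir127, whose loss in mice affects the placenta, had 205412 reads in replicate 1 and 302128 in replicate 2. That is 46372 CPM and 43249 CPM, a mean of 44811 ± 2208 CPM (SD, n = 2 throughout), and its rank among all 2202 genes was 4 in replicate 1 and 5 in replicate 2. In this bulk tissue, fewer cells that make a miRNA and less of it per cell cannot be told apart. Mir433 followed with 58093 and 50517 reads, or 13115 CPM in replicate 1 and 7231 CPM in replicate 2 (10173 ± 4160 CPM). It was the member with the widest gap between the libraries, and it ranked 17 in replicate 1 and 28 in replicate 2. Mir434 had 22605 and 41367 reads, or 5103 CPM in replicate 1 and 5922 CPM in replicate 2 (5512 ± 579 CPM), and ranked 36 in both.

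Mir431, studied in mouse for roles in muscle regeneration and axon growth, had 8033 and 9985 reads, or 1813 CPM in replicate 1 and 1429 CPM in replicate 2 (1621 ± 272 CPM). Mir136 had 173 reads in replicate 1 and 235 in replicate 2. These counts correspond to 39.1 CPM (95% Wilson interval 33.7 to 45.3) and 33.6 CPM (29.6 to 38.2), with a mean of 36.3 ± 3.83 CPM. Mir136 ranked 241 in replicate 1 and 243 in replicate 2, far below the other forward-strand members. Mir3071 had 0 reads in both libraries.

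**Figure D2:**
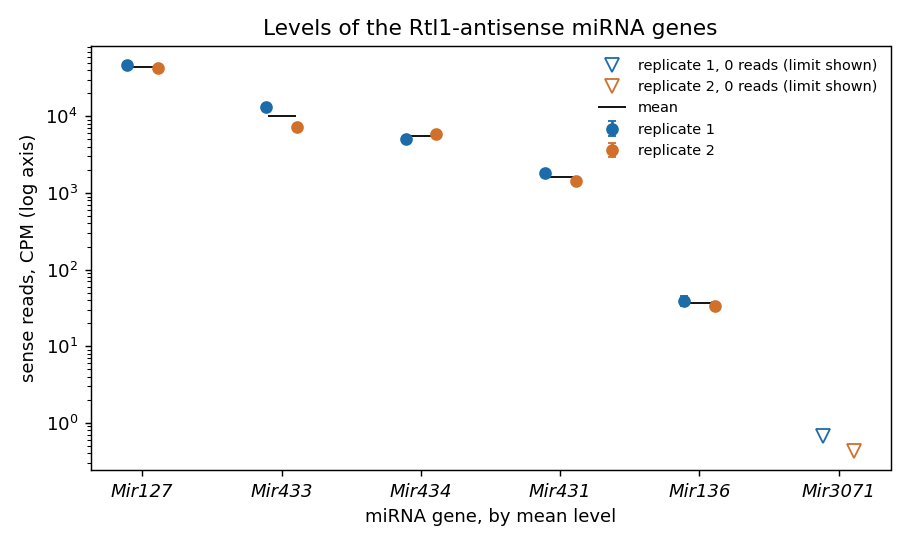
Level of each gene in CPM on a log axis, ordered by mean level, with replicate 1 in blue, replicate 2 in orange, the mean as a black line and 95% Wilson intervals (mostly smaller than the points). Levels run from 44811 CPM for Mir127 down to 36.3 CPM for Mir136, and the open triangles for Mir3071 mark the limits of 0.677 and 0.429 CPM that 0 reads allow.

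The order Mir127, Mir433, Mir434, Mir431, Mir136, Mir3071 was the same in both libraries, and no neighbours in it overlapped. The closest were Mir433 in replicate 2, at 7231 CPM, and Mir434 in replicate 2, at 5922 CPM. A small RNA read covers about 1 mature arm, so the level of a miRNA gene does not scale with its precursor. Divided by precursor length all the same, the mean levels were 640 CPM per base for Mir127, 82.0 for Mir433, 58.6 for Mir434, 17.8 for Mir431 and 0.586 for Mir136, in the same order. Among the members along the forward strand, the level increased over Mir431 and Mir433 to Mir127 and decreased over Mir434 to Mir136. This leaves out Mir432, which lies between Mir434 and Mir136 and had 0 reads. The tables count reads per gene, so the arms of a hairpin cannot be told apart in them.

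Mir127 made up 69.8% of the reads of the 6 genes in replicate 1 and 74.7% in replicate 2. Mir433 made up 19.7% and 12.5%, Mir434 7.68% and 10.2%, Mir431 2.73% and 2.47%, and Mir136 0.0588% and 0.0581%. Together the 6 genes held 6.64% of all sense reads in replicate 1 (95% Wilson interval 6.62 to 6.67) and 5.79% in replicate 2 (5.77 to 5.80), a mean of 6.22% ± 0.607.

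The genes most like each member were taken as those ranked directly above and below it by mean level over the 2 libraries. Beside Mir127 these were Mir132, a miRNA induced by neuronal activity, at 52078 ± 13446 CPM and Mir744 at 38174 ± 21093 CPM. Their mean levels were 0.22 and 0.23 away from that of Mir127 on the log2 scale. Mir433 ranked between Mir23a (10194 ± 3226 CPM) and Mir99a (9993 ± 1868 CPM), and Mir434 between Mir92b (5589 ± 1863 CPM) and Mir100 (5088 ± 2432 CPM). Mir431 ranked between Mir7689 (1650 ± 669 CPM) and Mir676 (1620 ± 319 CPM). Mir136 ranked between Mir16-2 (36.4 ± 18.2 CPM) and Mir3086 (35.9 ± 0.286 CPM). Their closeness to the members in mean level follows from how they were chosen and holds for uniquely placed reads only. A neighbour with copies at several loci, such as Mir16-2, may have lost reads, which was not tested. Mir3071 shares its level of 0 with many genes and has no single neighbour.

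On the strand question, all reads counted at Mir136 and Mir3071 lay in the direction of Mir136. The 173 and 235 sense reads of Mir136 were counted again as opposite-strand reads of Mir3071, while Mir136 had 0 opposite-strand reads. The reads of Mir136 were 57.7 times the limit of 3 reads for Mir3071 in replicate 1 and 78.3 times that limit in replicate 2. These ratios leave out the counting error of Mir136 itself. Mir431, Mir433, Mir127 and Mir434 also had 0 opposite-strand reads in both libraries. No uniquely placed read counted at the precursors of the 5 forward-strand genes therefore ran in the direction of Rtl1, within the limits given above. In the column that ignores strand, Mir136 and Mir3071 both had 0 reads, because reads in overlapping genes are set aside there as ambiguous.

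Such pairs recur in the locus. Between Mir770 and Mir410, 7 pairs of miRNA genes overlap on opposite strands, and in each the forward-strand gene held the reads. Mir409 had 11169 reads in replicate 1 and 16836 in replicate 2, against 0 and 0 for Gm24321 on the reverse strand. The reverse-strand gene had 0 reads in both libraries in 5 of the 7 pairs, and at most 6 reads, at Mir3544 opposite Mir337. Over the whole series there were 32 such pairs, 20 of them with at least 100 reads in each library, and in 19 of these 20 the lower gene held under 1% of the pair in both libraries. The exception was the pair of Mir24-1, with 116 reads in replicate 1 and 565 in replicate 2, and Mir3074-1, with 119 and 20. The lower gene was Mir24-1 in replicate 1, at 49.4% of the pair, and Mir3074-1 in replicate 2, at 3.42%. Only uniquely placed reads are counted, so any that Mir24-1 shares with another locus are missing from this balance.

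**Figure D3:**
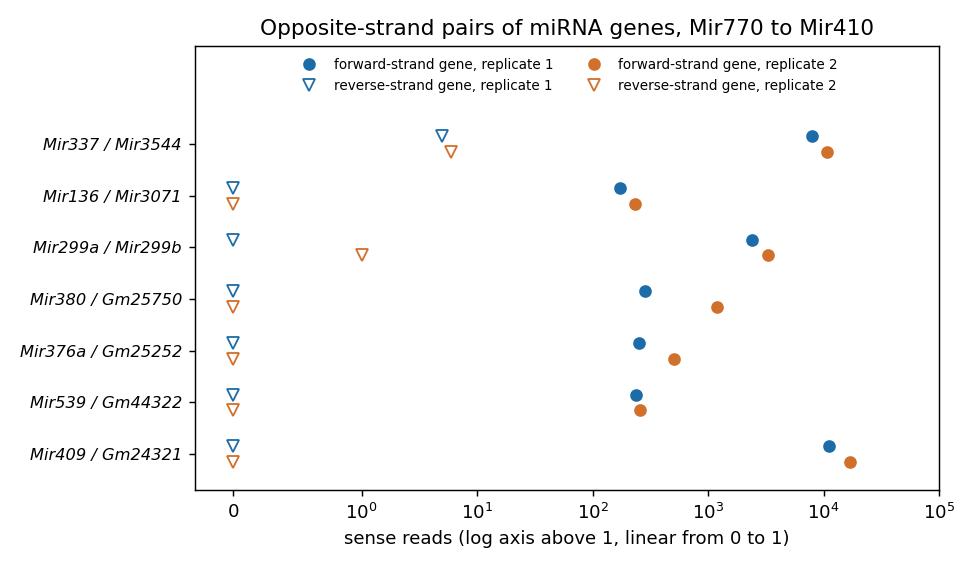
Sense reads of the 7 opposite-strand pairs of miRNA genes between Mir770 and Mir410, on an axis that is logarithmic above 1 and linear from 0 to 1. Filled circles are forward-strand genes and open triangles reverse-strand genes, in blue for replicate 1 and orange for replicate 2. Mir136 sits at 173 and 235 reads and Mir3071 at 0, and no reverse-strand gene exceeds 6 reads.

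Within the imprinted locus the 6 genes held nearly as many reads as all others combined, and this share was close in both libraries. From Mir770, in Meg3, to Mir410 the annotation has 64 counted miRNA genes, of which 49 reached 2 CPM in both libraries. The 6 genes held 45.7% of their reads in replicate 1 (95% Wilson interval 45.6 to 45.9) and 45.5% in replicate 2 (45.4 to 45.6), a mean of 45.6% ± 0.160. The 9 genes on the Meg3 side held 20.7% and 13.7% (17.2% ± 4.91), and the 5 on the Rian side 3.83% and 3.44% (3.64% ± 0.280). The 43 genes of the distal array held 29.8% and 37.3% (33.5% ± 5.34). Whether the shares of the neighbouring groups vary more than that of the 6 genes was not tested, since there are 2 libraries. Of the reads of the 6 genes, Mir127 made up 69.8% and 74.7% and Mir433 19.7% and 12.5%. The closeness of the summed share thus does not hold for each member.

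By gene, the ranks in the locus were 1 for Mir127, 3 for Mir433, 6 for Mir434, 15 for Mir431 and 43 for Mir136. The median level was 3567 CPM over the 6 genes, 471 CPM on the Meg3 side, 24.8 CPM on the Rian side and 122 CPM in the distal array, beside 131 CPM over all 64 genes. At 1000 CPM or more were 4 of the 6 genes, 2 of 9 on the Meg3 side, 2 of 5 on the Rian side and 10 of 43 in the distal array. The leading genes elsewhere were Mir770 (26110 and 14276 CPM), Mir341 in Rian (2738 and 2970 CPM) and Mir541 in the distal array (8985 and 9874 CPM). Mir127 stood above each of them in both libraries.

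**Figure D4:**
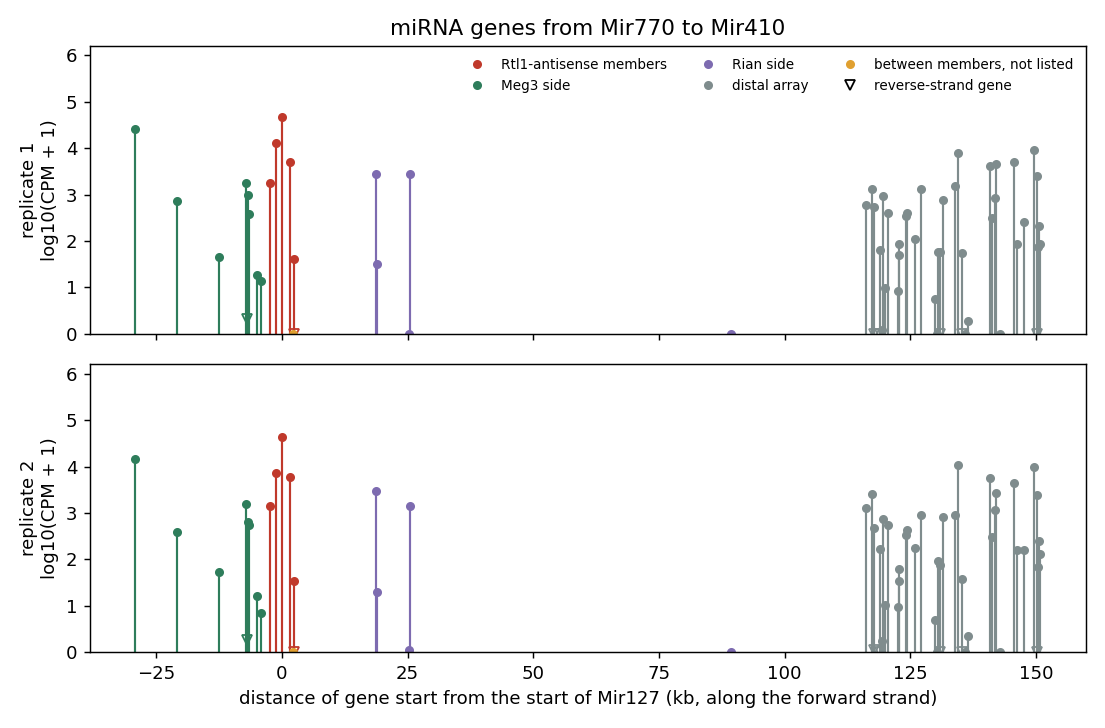
Level of each miRNA gene from Mir770 to Mir410 as log10(CPM + 1), against the distance of its start from the start of Mir127 in kb, with replicate 1 above replicate 2. Circles are forward-strand and open triangles reverse-strand genes, and colours give the position groups. The 6 genes in red form a peak at Mir127, which is the highest gene of the locus in both libraries.

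How closely the libraries gave the same values was examined for each member as the ratio of replicate 1 over replicate 2, after scaling by the trimmed mean of M-values (TMM). Mir433 was higher in replicate 1 by a log2 ratio of 0.73 (exact 95% interval 0.72 to 0.75), a ratio of 1.66. Mir434 was lower in replicate 1, at -0.34 (-0.36 to -0.32), and Mir431 higher, at 0.22 (0.18 to 0.26). Mir127 was at -0.02 (-0.03 to -0.02) and Mir136 at 0.09 (-0.20 to 0.38). The median over all 438 genes at 2 CPM or more in both libraries was 0.03.

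By an exact binomial test on the reads, with Benjamini-Hochberg adjustment over the 438 genes, 4 of the 5 tested members differed between the libraries beyond counting error, as did 63.9% of all genes tested. Adjusted p-values were 2.77e-23 for Mir431, 4.77e-09 for Mir127 and 2.08e-181 for Mir434. That of Mir433 was too small to be represented, and that of Mir136 was 0.643. With a linear trend on precursor GC content removed, Mir136 passed the test (log2 ratio 0.53, adjusted p = 0.000611) and Mir431 did not (-0.039, adjusted p = 0.112). The share of all genes past the test at any ratio in that setting is not given here. Over the other alternatives the adjusted p of Mir136 ran from 0.191 to 1 and that of Mir431 from 1.37e-55 to 1.42e-07. This test compares those libraries and not conditions. With a ratio of at least 2 required as well, none of the 5 was called, beside 18.0% of all genes tested (79 of 438). At a ratio of at least 1.5, Mir433 was called, 1 of 5, beside 39.0% of all genes. The median size of the log2 ratio was 0.22 over the 5 members, 0.46 over the 44 other tested genes of the locus, of which 4 were called, and 0.50 over all 438. These are descriptions, and nothing particular to the members is read from them. With library totals in place of TMM the median over all genes was 0.16, and 55 genes were called higher and 29 lower in replicate 1, beside 38 higher and 41 lower with TMM. Mir127 then stood at 0.10.

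**Figure D5:**
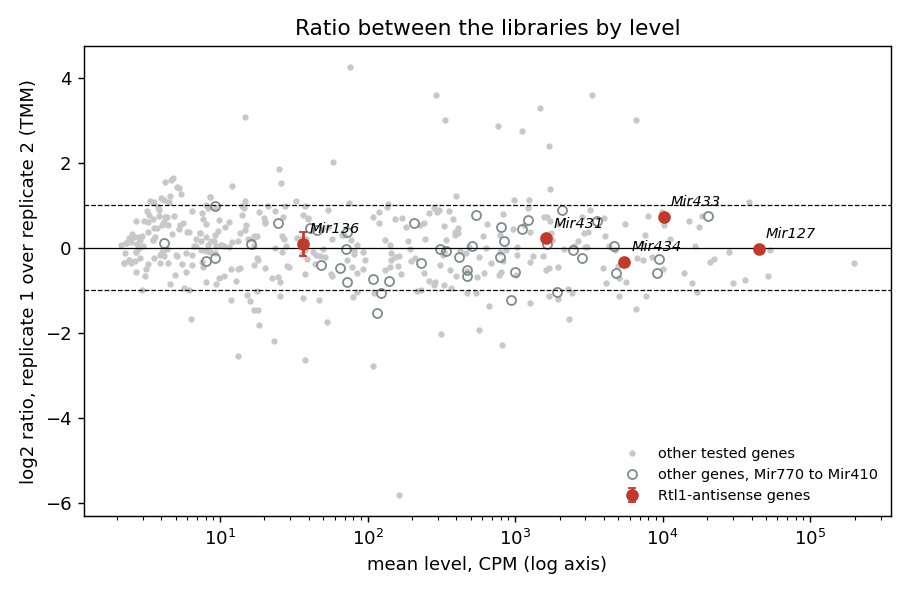
Log2 ratio of replicate 1 over replicate 2 after TMM scaling, against mean level in CPM on a log axis, for the 438 tested genes. Red points are the 5 tested members with exact 95% counting intervals, grey circles the other genes of the locus and dashed lines a ratio of 2. Mir433 lies highest of the members, at 0.73, and all 5 lie between the dashed lines.

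Ratios between members within a library need no scaling between libraries. Mir433 had 28.3 reads per 100 reads of Mir127 in replicate 1 and 16.7 in replicate 2, and Mir434 had 11.0 and 13.7. Mir433 therefore exceeded Mir434 2.57-fold in replicate 1 and 1.22-fold in replicate 2, a change of 2.10 times between the libraries. For Mir431 the values were 3.91 and 3.30 per 100 reads of Mir127. Mir136, the last of the forward-strand genes over Rtl1, had 0.0842 and 0.0778. The balance of Mir433 against Mir434 differed most between the libraries among the ratios of members computed. Log2 ratios between the libraries moved with precursor GC content, by 0.03 per percentage point over the tested genes, and Mir433 has 56.5% GC against 45.7% for Mir434. With that trend removed Mir433 was at 0.62 and Mir434 at -0.09. The part of base composition and of the separate trimming documents in these differences was not tested.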

How the data were processed

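The authors deposited 1 table per library of raw read counts for each miRNA gene, with columns for either strand, the sense strand and the opposite strand. The assembly is mm10 per the labels, and the annotation is M21 per the text record deposited with each library. Adapters were trimmed by a separate cited document for each library, per the labels. For the aligner and counter no name is given in the sources used here. The 4 summary lines that name no gene entered neither the library sizes nor the tests: in the either-strand column, unassigned reads outside genes made up 3.67% and 2.81% of all reads and ambiguous reads 1.74% and 2.15%. Sense counts were scaled to CPM. All 2202 identifiers matched GENCODE M21. Genes at 2 CPM or more in both libraries were tested by an exact two-sided binomial test (SciPy 1.17.1) given library sizes scaled by TMM (edgeR 4.0.16) over those genes, with Benjamini-Hochberg adjustment. Calls required both an adjusted p below 0.05 and a ratio no smaller than 2. Log2 ratios had 0.5 added to each count. The test was checked on simulated counts that varied by counting error only. That check therefore does not cover wider spread between real libraries. edgeR's quasi-likelihood test could not be used with 1 group. Arms were matched as exact strings to the Rtl1 transcript of GENCODE M21, and hairpins to each other within the RefSeq table. Genes named are the members, their rank neighbours, the top gene of each position group, genes of the tissue lists and overlapping genes. Mir3544, Mir337, Mir409, Gm24321, Mir24-1 and Mir3074-1 were named after their values were seen. The lists, like the members, were chosen with earlier results of these data known.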

Additional observations from a re-analysis of the deposited data

Results flagged for a closer look

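Mir3071 had 173 opposite-strand reads in replicate 1 and 235 in replicate 2, in a column not otherwise used for levels, above the limit of 3 reads that a count of 0 allows. They equal the sense reads of Mir136, which lies inside Mir3071 on the other strand. Groups of 2 libraries are too small for a check of single outlying samples.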

How the results depend on the processing

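The alternatives covered strand, denominator, scaling, filter, GC content and single libraries. Of all reads, mapped or not, the 6 genes held 2.28%. With the unstranded column, where Mir136 fell to 0 CPM and Mir127 stood at 47296 CPM, they held 47.3% of the reads of the locus. The denominator sets the first value and the loss of overlapping genes the second. At a ratio of 1.5, 171 of 438 genes (39.0%) and 1 of the 5 tested members were called. Directions turned for Mir431 with the GC trend removed (-0.039), for Mir127 with library totals (0.10) and for Mir136 with no filter on low counts (-0.0074), each near 0. Mir136 stood at 0.53 with the GC trend removed, where it passed the test at any ratio and Mir431 did not, and had no ratio in the unstranded column. Mir433 stayed higher in replicate 1 in each setting, from 0.62 to 0.86, and Mir434 lower, from -0.44 to -0.09. No member was called at a ratio of 2 under library totals, DESeq2 size factors, no filter, GC correction or the unstranded column. Of 438 genes tested, library totals called 84, DESeq2 size factors 76 and GC correction 60. With no filter 90 of 787 genes were called, and in the unstranded column 71 of 415. Nothing particular to the members is read from these counts. The order of the members was the same per base of precursor, an alternative chosen after seeing the data. With 1 library left out, the summed share was 5.79% or 6.64% and the share of the locus 45.5% or 45.7%, and the test between libraries cannot be made. No paired analysis was possible because the series has 1 group. Depth leaves Mir3071 with upper limits only, of 0.677 and 0.429 CPM, and gives Mir136 the widest ratio interval of the 5 tested members.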
